A study of Mus musculus with 6 samples.

Results

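The miR-200 family was examined in a TaqMan RT-PCR profile of bone marrow-derived macrophages with and without Dicer, the enzyme that trims precursor hairpins to mature miRNAs. The assays were chosen by name, taking the guide strands of miR-200a, miR-200b, miR-200c, miR-141 and miR-429, which gave 5 of the 596 miRNA assays of the panel. All 5 stood in the first of the panel's 2 blocks of rows and were measured once in each sample. The first group was 3 Dicer KO mice (LysM-Cre, Dicer flox/flox, Apoe-/-) and the second 3 Dicer WT mice (LysM-Cre, Dicer wt/wt, Apoe-/-), so that both groups carried the Cre driver of the myeloid lineage and lacked Apoe. All mice were male and 6 to 8 weeks old, and marrow was cultured for 7 days with L929-conditioned medium, a source of macrophage colony-stimulating factor. The panel held no assay of Dicer itself, so the extent of its deletion in the cultures was not checked.

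The miR-200 family is best known from epithelia, where its members repress the transcription factors ZEB1 and ZEB2 and thereby help to keep E-cadherin expressed. Loss of the family accompanies the epithelial-to-mesenchymal transition. It is not regarded as a marker of macrophages. Its hairpins lie in a pair of genomic clusters, each thought to be made as 1 primary transcript, and its members fall into a pair of seed groups that cut across the clusters. The seed, bases 2 to 8 from the 5′ end, is the main determinant of which mRNAs a miRNA binds.

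The mature sequences are shown to make both groupings visible, with the seed in capitals. They are those of the 3p arms in RefSeq, on GRCm38.p6, and all 5 names matched. The assay names carry no arm, and no source used here gives the target sequences of the assays. The first 3 sequences are from the chromosome 4 cluster and the last 2 from the chromosome 6 cluster, in the order of transcription.
miR-200b: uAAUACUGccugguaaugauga
miR-200a: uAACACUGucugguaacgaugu
miR-429: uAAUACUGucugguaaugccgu
miR-200c: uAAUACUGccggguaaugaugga
miR-141: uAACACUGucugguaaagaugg
The seed AAUACUG is shared by miR-200b, miR-200c and miR-429, and the seed AACACUG by miR-200a and miR-141. No other mature miRNA of the RefSeq table had either seed.

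The 3 hairpins of the first cluster lie on the minus strand at chr4:156053905-156055750, a span of 1846 bases, with 695 bases between miR-200b and miR-200a and 908 between miR-200a and miR-429. This span overlaps the annotated long non-coding RNA gene Gm13648, and the nearest protein-coding gene is Ttll10, 3087 bases away. Whether all the hairpins lie within Gm13648, and in its exons or introns, was not analysed here. The second cluster, also on the minus strand, is at chr6:124717914-124718390, where 336 bases separate miR-200c from miR-141, between the protein-coding genes Phb2 and Ptpn6. Across clusters, sequences are close: miR-200a and miR-141 share 20 of 22 bases and differ by C17A and U22G, counted from 1 at the 5′ end with the base of miR-200a first. Likewise miR-200b and miR-200c share 20 of the first 22 bases and differ by U11G and A22G, with the base of miR-200b first. How far an assay of one also reads the other was not tested.

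The readout was the threshold cycle (Ct), which falls by 1 for each doubling of template. Wells listed at Ct 40 were taken as wells without amplification, and values at or above a ceiling of 35 were set to 35. Abundance is given on a log2 scale as the mean Ct of the 5 endogenous small RNA controls of the same block (U6, U87, Y1, snoRNA135 and snoRNA202) minus the Ct of the assay in the same sample. The mean control Ct was 22.8, 20.3 and 19.3 in KO replicates 1, 2 and 3, against 21.1, 20.6 and 19.1 in WT replicates 1, 2 and 3 (exact permutation p = 0.8, two-sided). KO replicate 1 had the latest controls, and of the 215 miRNA assays that lay below Ct 30 in all WT samples, 21 were at Ct 40 in KO replicate 1, 5 in KO replicate 2, 4 in KO replicate 3 and 0 in each WT sample. This library therefore stands apart, and results are given with and without it. The smallest p that an exact permutation test of 3 samples against 3 can reach is 0.1. The labels call the samples biological replicates.

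All 5 members were detected in every WT sample. In WT macrophages the mean Ct was 24.9 ± 0.97 for miR-200b, 25.3 ± 0.66 for miR-200a, 25.3 ± 1.46 for miR-200c, 26.2 ± 1.42 for miR-429 and 30.3 ± 1.25 for miR-141 (SD, n = 3). Ordered by WT Ct among the 177 miRNA assays of the block that were detected in all WT samples, they ranked 91, 99, 98, 115 and 161. The first 4 thus lay near the middle of the detected miRNAs and miR-141 near the late end. The mean Ct values of the first 4 lie within their spread of each other, a spread of raw Ct that includes differences in input between samples. Within WT replicates 1, 2 and 3 miR-200b was earlier than miR-429, by 1.24, 2.18 and 0.61 cycles. Assays differ in efficiency, so this is an order of Ct values rather than of molecules.

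The WT cultures were also read for miRNAs typical of their cell type. The 8 myeloid and haematopoietic assays were detected in all WT samples, and miR-223, a miRNA of granulocytes and macrophages, had Ct values of 20.4, 16.9 and 16.9 in KO and 16.5, 15.3 and 15.04 in WT. Of 9 other epithelial-linked miRNAs 6 were detected in all WT samples, while miR-205 and miR-96 were at Ct 40 in all 6 samples. The remaining assay, miR-375, was detected in 2 KO samples and 1 WT sample. Of 8 stromal and endothelial miRNAs 7 were detected in all WT samples. The log2 summed level of the stromal and endothelial list ran from -4.34 to -3.25 in KO, against -6.31 to -0.68 in WT, where replicate 3 was the low sample. That sample was the highest of the WT samples for miR-429, miR-200c and miR-141 and the lowest for miR-200a and miR-200b, where it was at -5.72 and -4.90. The part that other cell types have in the miR-200 signal was not tested.

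Each of the 5 members had a lower mean in KO than in WT macrophages, as 87.6% of the tested assays did, and 1 of them, miR-429, passed the test across all assays. Among all 282 tested assays, 105 were lower in KO at an adjusted p under 0.05, which is 37.2% (limma, Benjamini-Hochberg adjustment), and the median of the log2 differences was -1.91. For the family the count was 1 of 5 and the median -1.55. No member was higher (0 by limma, also 0 at an unadjusted p under 0.05, beside 0.355% of all tested assays), while at an unadjusted p under 0.05 there were 3 lower members. The 3 KO samples were all below the 3 WT samples for 4 of the 5, beside 59.9% of all tested assays, and above them for 0, beside 1.06%. The counts of calls hang on single samples: without KO replicate 2 the panel had 3 lower assays and without WT replicate 1, 2 or 3 it had 2, none of them a family member, while without KO replicate 1 or 3 it had 101 and 112, with 2 family members in each. These counts do not set the family apart from the rest of the panel, and miR-429 and miR-200a entered the test only through WT, where all samples were measured. In bulk RNA, fewer cells of a type and less RNA per cell cannot be told apart.

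**Figure D1:**
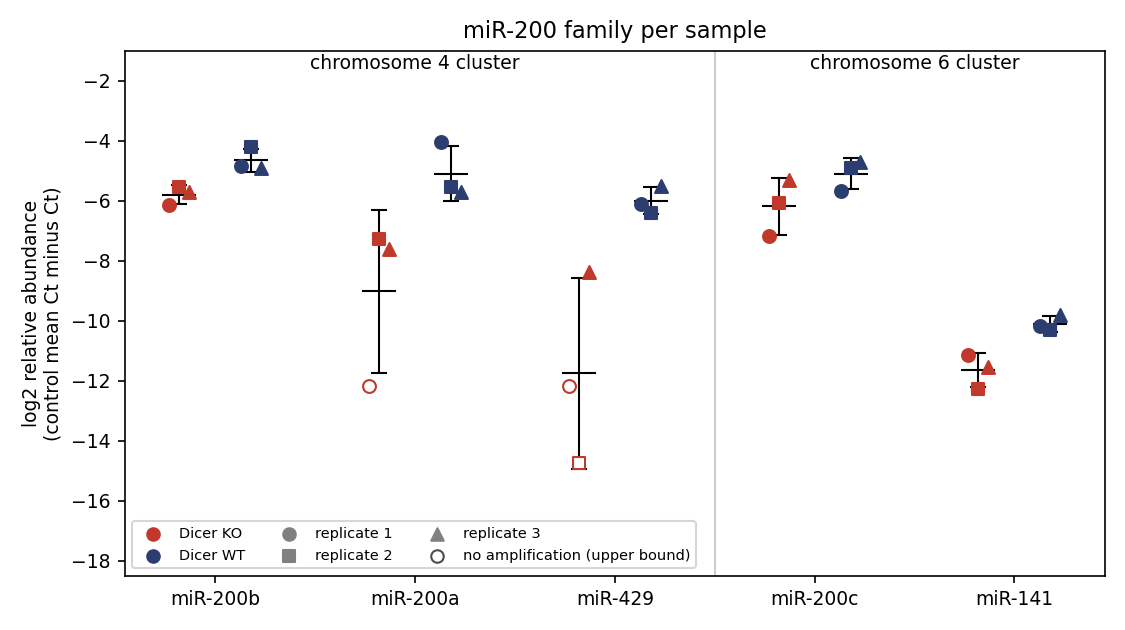
Log2 relative abundance of the 5 family members (y axis, control mean Ct minus Ct) in each Dicer KO (red, left) and Dicer WT (blue, right) sample; symbols mark the replicate, open symbols are wells without amplification, drawn at their upper bound, and bars are means ± SD of the plotted values (n = 3). The KO samples lie below all WT samples for all members but miR-200c, and the 3 open symbols belong to miR-200a and miR-429.

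In the chromosome 4 cluster, miR-429 had Ct values of 40, 40 and 27.7 in KO replicates 1, 2 and 3, against 27.2, 26.9 and 24.6 in WT. In log2 relative abundance its WT samples were at -6.10, -6.40 and -5.50. The only KO sample that was measured, replicate 3, was at -8.39, below all WT samples, and the others had upper bounds of -12.16 and -14.73. With the ceiling of 35, miR-429 fell at least 54.2-fold in KO if both wells without amplification are taken as absences (log2 -5.76 ± 1.49, SE, n = 3 per group; limma, adjusted p = 0.0333). The bound depends on this choice and was smaller, at log2 -4.43 with a ceiling of 33 and -4.91 with a common floor set after scaling, where miR-429 also passed. KO replicate 3 alone was 5.25-fold below the WT mean (log2 -2.39). So the size of the difference rests on 2 wells. Without KO replicate 1 the log2 difference was -5.56 (limma, adjusted p = 0.0772), without KO replicate 2 it was -4.28 (0.0581), and without KO replicate 3 it was -7.45 (0.0113). Without WT replicate 1, 2 or 3 miR-429 did not pass either (limma, adjusted p = 0.111, 0.109 and 0.0744).

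miR-200a, the middle hairpin of the same cluster, had Ct values of 40, 27.6 and 27.0 in KO and 25.1, 26.1 and 24.8 in WT. Its log2 relative abundance was at most -12.16, and -7.28 and -7.62 in KO replicates 1, 2 and 3, against -4.06, -5.54 and -5.72 in WT. Both measured KO samples lay below all WT samples, and WT replicate 1 was the highest. With the unamplified well at the ceiling the difference was -3.92 ± 1.34 (SE, n = 3 per group; 95% interval -7.11 to -0.72; limma, adjusted p = 0.0555), which did not pass. Without KO replicate 1, the sample with that well, it was -2.35 and passed (limma, adjusted p = 0.0447), and without KO replicate 3 it was -4.62 and passed (0.0462). Over all alternatives tested its adjusted p ran between 0.0293 and 0.391.

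miR-200b, the first hairpin of the cluster, amplified in every sample. It had Ct values of 29.0, 25.8 and 25.04 in KO and 25.9, 24.8 and 24.0 in WT, or -6.13, -5.54 and -5.70 in KO and -4.86, -4.21 and -4.90 in WT on the log2 relative scale. The groups did not overlap. The difference was -1.14 ± 0.50 (SE, n = 3 per group; 95% interval -2.33 to 0.05; 2.20-fold lower), which did not pass (limma, adjusted p = 0.103). It was -0.97 without KO replicate 1, also short of the threshold (limma, adjusted p = 0.115).

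In the chromosome 6 cluster, miR-200c had Ct values of 30.02, 26.4 and 24.6 in KO and 26.7, 25.5 and 23.8 in WT. On the log2 relative scale these were -7.18, -6.08 and -5.30 in KO and -5.67, -4.90 and -4.71 in WT. The groups overlapped, since KO replicate 3 was above WT replicate 1. The difference was -1.10 ± 0.65 (SE, n = 3 per group; 95% interval -2.65 to 0.45; limma, adjusted p = 0.194), and without KO replicate 1 it was -0.60 (limma, adjusted p = 0.379).

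miR-141, the second hairpin of that cluster, was the latest member, with Ct values of 34.0, 32.5 and 30.9 in KO and 31.2, 30.9 and 28.9 in WT. Its log2 relative abundance was -11.15, -12.27 and -11.54 in KO and -10.18, -10.32 and -9.80 in WT, so the groups did not overlap. KO replicate 1 was the highest of the KO samples here, while it was the lowest for miR-200b and miR-200c. The difference was -1.55 ± 0.53 (SE, n = 3 per group; 95% interval -2.81 to -0.29; 2.93-fold lower), with an adjusted p of 0.0555 by limma. This became 0.0485 when the replicate number was a block, and 0.037 without KO replicate 1. By limma it was 0.149 without KO replicate 2, 0.125 to 0.157 without any 1 WT sample, and 0.153 with a ceiling of 33. Over all alternatives tested its adjusted p ran between 0.0248 and 0.839. The passenger strand of its hairpin, miR-141*, was at Ct 40 in all 6 samples. No assay named in that way was found for the other members.

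Without KO replicate 1, 2 members were lower (miR-200a and miR-141), beside 101 of 293 tested assays. With all samples it was 1 (miR-429), beside 105 of 282. With the replicate block there were also 2 (miR-141 and miR-429), beside 118 of 282. By same-numbered pairs, the KO sample was below the WT sample in all 3 pairs for each of the 5 members, as for 72.3% of all tested assays. These pair differences ran from -1.33 to -0.81 for miR-200b, from -1.51 to -0.59 for miR-200c and from -1.95 to -0.97 for miR-141.

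Taking measured wells alone brought the members closer together, at -2.39 for miR-429 (1 KO well), -2.35 for miR-200a (2 KO wells), -1.55 for miR-141, -1.14 for miR-200b and -1.10 for miR-200c. The median over all tested assays lies within this range, but it uses all samples, while miR-429 and miR-200a here leave out KO replicate 1. Without KO replicate 1 the median was -1.49, beside -2.35 for miR-200a. Wells without amplification at assays that were early in WT were not particular to the family. With the other 5 samples below Ct 30, KO replicate 1 was at Ct 40 in 12 assays, of which miR-200a was 1, KO replicate 3 in 1 assay and KO replicate 2 and the WT samples in 0. Both KO replicates 1 and 2 were at Ct 40, with the other samples below Ct 30, for 2 assays, miR-429 and miR-1306. Over the panel, 26 of the 277 assays detected in all WT samples were detected in at most 1 KO sample (9.39%), as miR-429 was, and 50 in 2 (18.1%), as miR-200a was. What left these wells without signal was not tested.

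The members were also set beside assays of like WT level. Of the 27 tested assays of the block within 1 cycle of the WT mean Ct of miR-200b, 25 had a lower difference than miR-200b; the count was 31 of 33 for miR-200c and 9 of 12 for miR-141. For miR-429 and miR-200a, whose differences are set by wells at the ceiling, no such rank is given. The 34 neighbours of each had medians of -2.08 and -1.95 over all samples. The measured wells of these 2 members were at -2.39 and -2.35. They leave out KO replicate 1, and for miR-429 also KO replicate 2, so the values are not of like samples. In order of the difference from the lowest of the 282 tested assays, miR-141, miR-200b and miR-200c were numbers 174, 207 and 209. All 3 were thus above the panel's median of -1.91, but without KO replicate 1 miR-141, at -1.80, was below the median of -1.49.

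**Figure D2:**
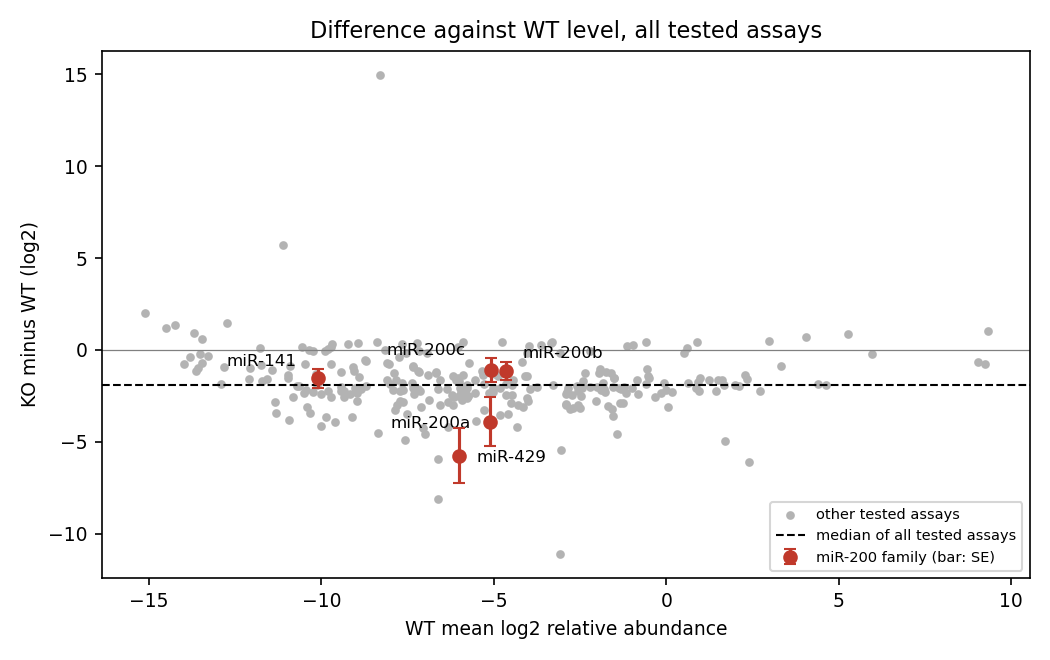
KO minus WT difference (y axis, log2) against mean WT log2 relative abundance (x axis) for all 282 tested assays; the family is in red with SE bars (n = 3 per group), other assays in grey, and the dashed line is the median of -1.91. miR-429 and miR-200a, with unamplified wells at the ceiling, lie below the line, and miR-141, miR-200b and miR-200c above it, although miR-141 is below the median without KO replicate 1.

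Ratios between members within a sample do not depend on the control RNAs, and they were compared for all 10 pairs (exact permutation tests, two-sided, with Benjamini-Hochberg adjustment over the 10 pairs). miR-200b and miR-200c, which share a seed and come from different clusters, had similar ratios in both groups: miR-200b minus miR-200c was 1.05, 0.54 and -0.40 in KO and 0.81, 0.69 and -0.18 in WT. The groups overlapped, the KO minus WT difference was -0.04, and single KO and WT samples differed by between -1.21 and 1.24 (exact p = 1.0). Within same-numbered pairs the difference was 0.24, -0.14 and -0.22. The pairs of miR-141 with miR-200b and miR-200c also overlapped, at KO minus WT differences of 0.41 and 0.45 (exact p = 0.6 for both, adjusted 0.75). Within same-numbered pairs 1 to 3 these were -0.31, 0.62 and 0.93 for miR-200b and -0.55, 0.76 and 1.14 for miR-200c. The exact tests do not use the pairing, and a p that misses the threshold does not show that the 3 miRNAs changed alike.

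The pairs of miR-429 with miR-200b, miR-200c and miR-141 did not overlap between the groups. miR-200b, from the same cluster and with the same seed, exceeded miR-429 by at least 6.03 and 9.18 in KO replicates 1 and 2 and by 2.69 in KO replicate 3, against 1.24, 2.18 and 0.61 in WT. The KO samples were all above the WT samples, also in the sample where both were measured (exact p = 0.1, the smallest possible; adjusted 0.2). The pairs of miR-429 with miR-200c and miR-141 had the same pattern, with KO minus WT differences of 4.66 and 4.21 with unamplified wells at the ceiling (exact p = 0.1 for both, adjusted 0.2). In the pairs with miR-429 the values of KO replicates 1 and 2 are set by the ceiling, so these differences and exact p values are not read further. In KO replicate 3 alone, miR-200c exceeded miR-429 by 3.09, against 0.43, 1.498 and 0.79 in WT. There miR-141 minus miR-429 was -3.15, against -4.08, -3.925 and -4.30 in WT.

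miR-200a minus miR-200b was at most -6.03, and -1.74 and -1.92 in KO, against 0.80, -1.33 and -0.83 in WT, again without overlap (exact p = 0.1, adjusted 0.2). The gap between the nearest KO and WT samples was 0.41. Against miR-200c, from the other cluster, miR-200a was at most -4.98, and -1.20 and -2.32 in KO, and 1.61, -0.64 and -1.01 in WT. These groups did not overlap either (exact p = 0.1, adjusted 0.2), and their nearest KO and WT samples differed by -0.19. miR-200a minus miR-141 overlapped between the groups also in measured wells, at 4.98 and 3.92 in KO replicates 2 and 3 and 6.12, 4.78 and 4.08 in WT (exact p = 0.4 with KO replicate 1 at the ceiling, adjusted 0.667). For miR-200a and miR-429 no ratio exists in KO replicate 1, where neither amplified, so its test is not read; KO replicate 3, with both measured, was at 0.77, within the WT range of -0.22 to 2.04. By seed and cluster, miR-200b and miR-429 share both and were at -1.14 and -5.76, with miR-429 at -2.39 in its 1 measured KO well, while miR-200b and miR-200c share the seed alone and were at -1.14 and -1.10. Whether differences group by seed or by cluster was not tested. None of the 10 pairs passed after adjustment, and with this number of samples none could.

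**Figure D3:**
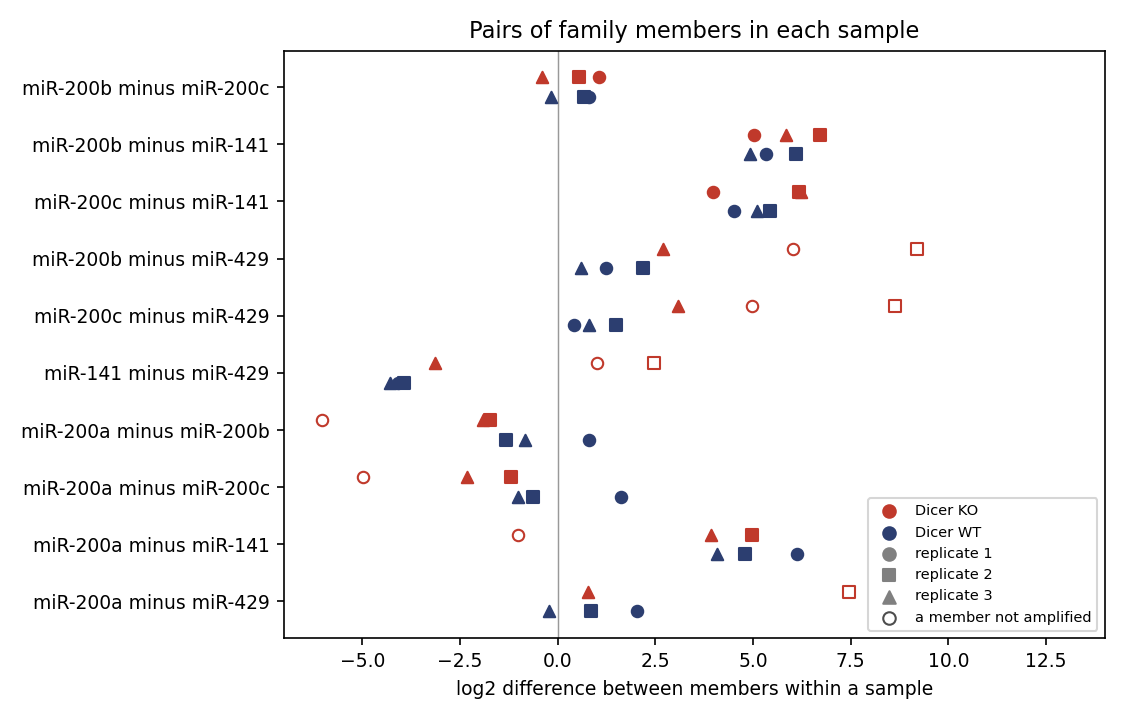
Log2 difference between family members within a sample (x axis) for all 10 pairs, with Dicer KO samples (red) above Dicer WT samples (blue); symbols mark the replicate, and open symbols are samples in which 1 member of the pair did not amplify; the sample in which both miR-200a and miR-429 did not is left out. Pairs among miR-200b, miR-200c and miR-141 overlap between KO and WT, while the KO samples lie to the right of WT in the pairs of miR-429 with each of these 3.

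Beside the family, the 6 tested members of the list of other epithelial-linked miRNAs had a median difference of -1.41, and 1 passed, beside 37.2% of all tested assays. Leaving out 1 sample moved this median to -0.97 without WT replicate 2 and -2.04 without WT replicate 3. Without KO replicate 3 it was -0.89, over 7 tested assays, since miR-375 then entered the test. In KO replicates 1 and 2 miR-375 was at -10.87 and -11.81 on the log2 relative scale, above all WT samples. In KO replicate 3 it was at Ct 40. The assay that passed was miR-194, at -2.56 ± 0.67 (SE, n = 3 per group; limma, adjusted p = 0.034). Its Ct values were 32.0, 29.4 and 27.2 in KO and 26.3, 27.4 and 25.6 in WT. Without KO replicate 1 miR-194 was at -2.33 and did not pass (limma, adjusted p = 0.0561), nor did it without KO replicate 2 or any 1 WT sample (0.0733 to 0.111). miR-203, a miRNA of stratified epithelium, was at -2.13 (limma, adjusted p = 0.0583) and miR-182 at -0.61 (limma, adjusted p = 0.588). The log2 summed level of the epithelial-linked list ran from -6.85 to -6.50 in KO and from -5.45 to -4.33 in WT, and that of the miR-200 family from -5.53 to -4.24 in KO and from -3.13 to -2.95 in WT. Neither sum overlapped between the groups. Nor did that of the myeloid and haematopoietic list, while the stromal and endothelial sum did overlap. Among single assays, 59.9% of those tested had all KO samples below all WT samples. Wells without detection added nothing to the sums. The family's sum thus leaves out miR-429 in KO replicates 1 and 2 and miR-200a in KO replicate 1.

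Of 7 tested stromal and endothelial miRNAs 0 passed by limma, also 0 at an unadjusted p under 0.05, beside 37.2% of all tested assays that were lower. Their median was -1.15. Leaving out WT replicates 1, 2 and 3 in turn gave medians of -0.19, -0.28 and -2.84, the last over 8 tested assays. Leaving out KO replicate 1 gave -0.81. With all samples the 7 were between -2.24 for miR-126-3p, an endothelial miRNA, and -0.64 for miR-145, a smooth muscle miRNA. Of the 8 myeloid and haematopoietic miRNAs 4 were lower, beside 37.2% of all tested assays. Their median was -1.92, beside -1.91 for all tested assays. Among the 4 was miR-342-3p at -3.09 (limma, adjusted p = 0.0457, and 0.0547 in the fit blocked by replicate number). The count became 2 when KO replicate 1 was left out, beside 101 of 293 tested assays, and 5 when KO replicate 3 was, beside 112 of 285. It was 0 when KO replicate 2 or any 1 WT sample was left out, where the whole panel had 3 and 2 lower assays. The summed level of the myeloid list ran from 3.38 to 4.51 in KO and from 5.78 to 6.35 in WT. No test between lists was made.

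**Figure D4:**
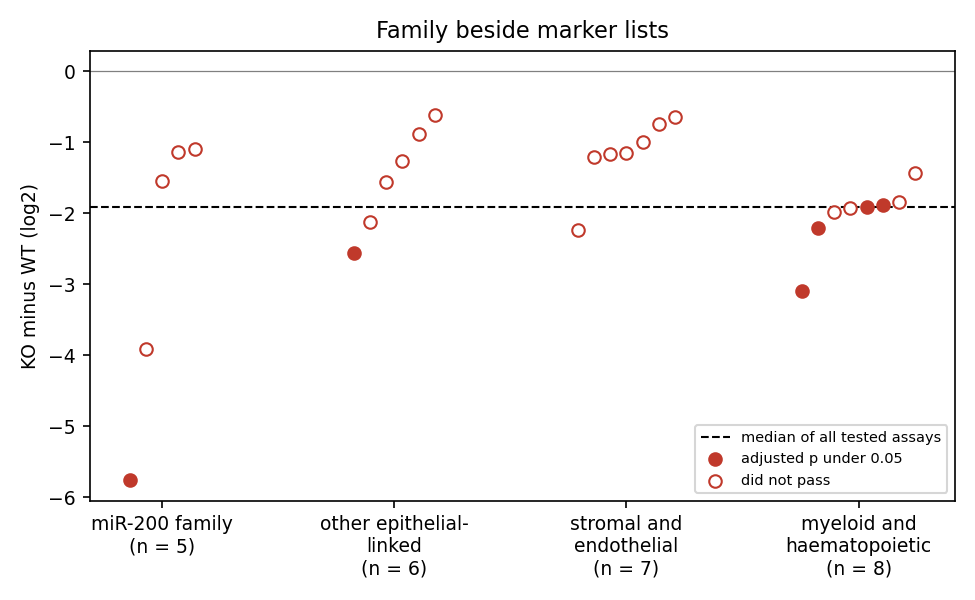
KO minus WT difference (y axis, log2) of each tested member of the miR-200 family and of 3 marker lists; filled points passed the test (limma, adjusted p under 0.05), open points did not, and the dashed line is the median of all tested assays, -1.91. The family runs from -5.76 to -1.10 with unamplified wells of miR-429 and miR-200a at the ceiling, and from -2.39 to -1.10 in measured wells.

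The assays whose level over the 6 samples was most like that of each member were sought among the tested assays by Pearson's r, as a description, since all share the same 6 samples and the common KO shift. For miR-200c they were miR-16 (r = 0.994), miR-186 (0.975) and miR-24 (0.965), and for miR-200b they were miR-19b (0.984), miR-674 (0.979) and miR-93 (0.977). miR-16 and miR-19b belong to broadly expressed families that bear on cell proliferation. For miR-200a they were miR-450a-5p (r = 0.979), miR-501-3p (0.973) and miR-503 (0.973), and for miR-141 miR-1897-3p (0.950), miR-10b (0.940) and miR-1839-3p (0.938). For miR-429 they were miR-1306 (0.991), which had the same unamplified KO wells, miR-191* (0.970) and miR-1943 (0.958). No member had another member among its 3 most alike assays. Unamplified wells entered every r at the ceiling, in KO replicate 1 for miR-200a and in KO replicates 1 and 2 for miR-429. Between members r was highest for miR-141 and miR-429 (0.888) and for miR-200a and miR-200b (0.823). It was lowest for miR-200a and miR-141 (0.488). Each of these pairs holds a member with unamplified wells, so their order is not read by seed or cluster. Among the members measured in all samples, r was 0.769 for miR-200b and miR-200c, 0.668 for miR-200b and miR-141 and 0.518 for miR-200c and miR-141.

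The authors' deposited table of relative quantities gives each member as a ratio to WT. For miR-429 the authors' deposited table lists 0.000486, 7.68e-05 and 0.190 in KO, against 0.968, 0.737 and 1.40 in WT, so that unamplified wells entered it as numbers. The fold changes of KO over WT in the authors' deposited table are 0.0613 for miR-429, 0.115 for miR-200a, 0.375 for miR-141, 0.472 for miR-200b and 0.531 for miR-200c. The 5 members stand there in the same order as by the Ct differences above. Because the fold in the authors' deposited table is a ratio of arithmetic means, the measured KO well of miR-429 sets its value.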

How the data were processed

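MicroRNAs were measured by TaqMan RT-PCR in 3 Dicer KO and 3 Dicer WT macrophage cultures. Per the labels' protocols, RNA was isolated with a mirVana kit, reverse transcribed and preamplified; instrument, threshold and software have no mention in the sources used here. Ct values were deposited, a score per assay and sample with a value of 40 where no amplification is assumed, with relative quantities and fold changes, each a ratio to WT made by the authors. By their values, the deposited ratio of each member is that relative to U6, snoRNA135 and snoRNA202.

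Tests covered the assays below Ct 35 in all 3 samples of at least 1 group. The test of KO over WT was that of limma 3.58.1 (lmFit and eBayes, genotype alone, two-sided; R 4.3.3) with Benjamini-Hochberg adjustment over the 282 tested assays and a threshold of 0.05; the fit was tested on simulated data. Intervals are limma's 95% intervals. The control Ct values are the measure of input, and precision is limited by having 3 samples a group. Same-numbered samples deviated together from their group means (correlations across assays of 0.23, 0.28 and 0.27). By this check the numbers were taken as a possible pairing, with no batch stated in the labels. The main fit and the exact tests do not use it. Values of the fit blocked by replicate number are given where they change a call. In that fit miR-200b and miR-200c did not pass (limma, adjusted p = 0.0682 and 0.0868). The members, lists and named assays (the members, their passenger strands, the 3 assays most alike by r and nearest in WT level, and list members) were chosen with earlier results of these data known; the comparison of pairs was added after the values were seen. Figures were drawn with matplotlib 3.10.9 in Python 3.11.15.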

Additional observations from a re-analysis of the deposited data

How the results depend on the processing

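All differences are KO minus WT on the log2 scale, with adjusted p by limma. miR-429 stayed below 0 in all 18 alternatives, 1 of them without a test, and passed in 7: it was at -9.09 with Ct values as deposited (adjusted p = 0.0584), -9.02 from the deposited ratios, -6.33 without a reference, -3.87 with the global mean of miRNAs as reference, -5.76 without a filter on late assays, and -2.39 with unamplified wells left out, an alternative added after the values were seen. miR-200a passed at -3.25 with a ceiling of 33, at -4.01 with U6 alone and at -3.92 with a trended robust fit. miR-200b passed at -1.14 with a common floor set after scaling, and miR-141 at -1.51 there, at -1.55 among assays detected in all 6 samples and at -1.55 with the replicate block, which changed no other member's call. The global mean removes the common shift, and with it miR-200b, miR-200c and miR-141 turned to 0.75, 0.79 and 0.34, none of which passed, and the median of all tested assays moved to -0.20 (-2.45 without a reference); relative to that median the members were at -3.68 for miR-429, -1.83 for miR-200a, 0.54 for miR-141, 0.95 for miR-200b and 0.99 for miR-200c.

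The number of members lower was 3 with the common floor, beside 113 of 282 tested assays. It was 2 with a ceiling of 33 (beside 113 of 262), U6 alone (117 of 282), the trended robust fit (117 of 282) or the replicate block (118 of 282). By limma it was 0 with Ct values as deposited (beside 80 of 291), the deposited ratios (79 of 282), no reference, the global mean or no filter (2, 2, 2, 1 and 3 members at an unadjusted p under 0.05). The number of assays lower, 105, became 2 without a reference, with the global mean and without the filter (40, 33 and 145 at an unadjusted p under 0.05, beside 150 before); 101 adjusted p values lay between 0.03 and 0.05. The number higher became 2 with a ceiling of 33 or U6 alone and 0 without a reference (2 at an unadjusted p under 0.05). Leaving out each sample in turn gave -7.45 to -4.28 for miR-429, -4.79 to -2.35 for miR-200a, -1.80 to -1.24 for miR-141, -1.26 to -0.92 for miR-200b, -1.54 to -0.60 for miR-200c and -2.06 to -1.49 for the median; 0 to 2 members lower (in the fits with 0 by limma, between 1 and 2 had an unadjusted p under 0.05), 2 to 112 assays lower and 1 to 3 higher. The assays lower were 3 without KO replicate 2 and 2 without WT replicate 1, 2 or 3 (133, 114, 102 and 126 at an unadjusted p under 0.05). With assays required in all 6 samples miR-429 and miR-200a could not be tested. The causes of these changes were not tested.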

Other observations

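In the authors' deposited table of relative quantities, 33 of the 596 assays deviated by over 0.01 on the log2 scale from the ratio recomputed from their Ct values with the same 3 controls of their block, U6 and both snoRNAs. None of the 5 members of the miR-200 family was among the 33.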
